A study of Mus musculus with 12 samples.

Results

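The comparison set 4T1 cells treated with etomoxir + SB204990 + acetate against 4T1 cells treated with vehicle, and asked which H3K27ac regions acetate brings back to the vehicle level while both inhibitors are present and which stay apart. It rests on 4 of the 12 H3K27ac ChIP-seq libraries of the study, 2 per treatment, chosen by their treatment labels. The 2 libraries of etomoxir + SB204990 are set beside them, because a return can only be judged at regions that the inhibitors alone had moved. 4T1 is an established mouse mammary carcinoma line, labelled wild type, and all cells were treated for 48 h, with acetate at 5 mM and etomoxir and SB204990 at 50 µM each. The cells carried no other labelled alteration. Each treatment has 1 library in each of a pair of sets that share a suffix in their names (set 1 and set 2). Neither the meaning of the suffix nor whether the libraries came from separate cultures is given in the labels, so all p-values measure only the spread between these libraries. Of 10 epithelial markers 9 had an interval, and their summed values ran from 8924 to 18588 in the libraries of the 3 treatments. The sums of the leukocyte and endothelial markers lay at or below 1230, with 5 of 8 and 5 of 6 markers present.

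H3K27ac is laid down by acetyltransferases such as p300 at active promoters and enhancers, with acetyl-CoA as the acetyl donor. Etomoxir blocks the carnitine palmitoyltransferase encoded by Cpt1a, which lets long-chain fatty acids enter mitochondria for oxidation. SB204990 blocks the product of Acly, ATP citrate lyase, the cytosolic source of acetyl-CoA from citrate. Added acetate can be turned into acetyl-CoA by acetyl-CoA synthetases without either enzyme. PPAR target genes are a second group of interest here: PPARs are nuclear receptors that are activated by fatty acids, bind DNA with RXR at direct repeats of AGGTCA with 1 base between, and switch on genes of fatty acid oxidation and lipid storage such as Pdk4, Angptl4 and Plin2.

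The regions that carried the differences are shown first. The Pdk4, Cpt1a and Fbp2 promoters (250 bases before to 50 after the start, RefSeq, GRCm38.p6, 5′ to 3′ on the gene's strand) lie in intervals whose share of all H3K27ac was raised with the inhibitors and stayed raised with acetate. They are chr6:5496229-5496528 on the minus strand for Pdk4, chr19:3323051-3323350 on the plus strand for Cpt1a and chr13:62858351-62858650 on the minus strand for Fbp2. Capitals mark an exact TGANTCA, the AP-1 motif, which 7.81% of 32851 RefSeq promoters of this length hold. A direct repeat of AGGTCA with 1 base between and up to 1 mismatch, searched on both strands, is in none of the 3, and 0.554% of all promoters hold one.
Pdk4: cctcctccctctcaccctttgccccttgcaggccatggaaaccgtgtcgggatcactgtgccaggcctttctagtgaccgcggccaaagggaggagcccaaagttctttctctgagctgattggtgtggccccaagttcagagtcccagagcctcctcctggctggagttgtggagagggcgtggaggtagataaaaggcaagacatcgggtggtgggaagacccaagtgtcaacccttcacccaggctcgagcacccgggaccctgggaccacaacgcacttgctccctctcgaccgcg
Cpt1a: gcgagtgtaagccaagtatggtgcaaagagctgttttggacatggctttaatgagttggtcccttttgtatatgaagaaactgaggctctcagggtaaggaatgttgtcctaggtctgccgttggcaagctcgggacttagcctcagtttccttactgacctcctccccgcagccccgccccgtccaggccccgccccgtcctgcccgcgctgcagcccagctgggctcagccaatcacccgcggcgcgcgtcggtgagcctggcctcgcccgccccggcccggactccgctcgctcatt
Fbp2: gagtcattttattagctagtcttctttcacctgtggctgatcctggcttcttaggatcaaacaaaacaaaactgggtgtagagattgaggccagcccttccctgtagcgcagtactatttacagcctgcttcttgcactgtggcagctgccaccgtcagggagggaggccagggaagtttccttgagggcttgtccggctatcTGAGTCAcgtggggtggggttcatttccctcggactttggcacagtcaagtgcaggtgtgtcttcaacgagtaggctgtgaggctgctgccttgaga

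The 80 intervals whose share was raised with the inhibitors and stayed raised with acetate hold 20 such repeats outside masked repeat sequence. A pair of them is printed, at chr17:33774390-33774430 (minus strand) in the interval over the Angptl4 start site, and at chr6:29245567-29245607 (plus strand) in the interval upstream of Hilpda. The next sequences come from intervals that the inhibitors lowered, at chr2:164922507-164922541 in the Mmp9 interval and at chr7:87218010-87218044 upstream of Nox4, both on the plus strand. They are shown because these intervals lay at the vehicle level in scaled value and under it after division by the column sum. The Mmp9 interval holds 16 TGANTCA sites and the Nox4 interval 5, and 1 of each is printed. Of all tested intervals, 55.2% hold such a site. Capitals mark the direct repeat in the first pair and TGANTCA in the second pair, in mm10.
Angptl4 interval: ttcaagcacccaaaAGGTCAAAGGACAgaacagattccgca
Hilpda interval: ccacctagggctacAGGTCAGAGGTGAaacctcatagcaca
Mmp9 interval: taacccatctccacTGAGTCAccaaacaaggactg
Nox4 interval: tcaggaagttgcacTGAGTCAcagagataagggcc

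With both inhibitors and acetate, the scaled total of H3K27ac was above the vehicle level within each set. The sum of the spike-in scaled values over all 126464 intervals was 6824977 and 7676895 in the vehicle libraries (sets 1 and 2), 5353659 and 7179165 with etomoxir + SB204990, and 8588560 and 11266173 with etomoxir + SB204990 + acetate. The means were 7250936 ± 602397 with vehicle and 9927366 ± 1893358 with all 3 agents (SD, n = 2 each). Both libraries with all 3 agents lay above both vehicle libraries, and the exact two-sided permutation test gave p = 0.333, the smallest p that 2 against 2 libraries allow. The means and this test mix the sets, whose factors were probably scaled apart, as described below. The ratio to vehicle was 1.26 in set 1 and 1.47 in set 2, against 0.784 and 0.935 for the inhibitors without acetate. When the spike-in factors alone were compared, which takes the sequencing depth out of the total, the ratio was 1.38 in set 1 and 1.09 in set 2. In bulk chromatin, more acetylation per cell and more cells that carry the mark cannot be told apart.

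The higher level was spread over the genome. The 63903 intervals whose values averaged 10 scaled units or more over the 12 libraries were tested. Their median log2 difference from vehicle was 0.47 with all 3 agents, -0.14 with the inhibitors alone and 0.48 with acetate alone. Promoter intervals were like the rest, with the log2 ratio of their summed values at 0.28 in set 1 and 0.60 in set 2 against 0.33 and 0.55 for all intervals. The sets differed in where the rise was larger. The weakest quartile of intervals had 0.71 in set 1 and 0.28 in set 2, and the strongest 1% had 0.25 and 0.60. Each library was then divided by its own sum, and values were expressed per 10000000 of that sum, so that only the distribution was compared. On that scale the medians were 0.04 with all 3 agents, 0.07 with the inhibitors alone and 0.02 with acetate alone. Below, the scaled value as deposited is called the amount of H3K27ac at a region, and the value divided by the sum its share of all H3K27ac. The amount still carries the sequencing depth of the library, because the factors were applied to reads (in set 2, 9689378 with vehicle and 12990407 with all 3 agents). The highest factor was 1 in each set, in etomoxir + acetate of set 1 and in etomoxir + SB204990 of set 2. The factors were therefore probably scaled within each set, so amounts of set 1 and set 2 may not share 1 scale. Comparisons of amounts across sets carry that difference. The division by the sum takes out both depth and factor.

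**Figure D1:**
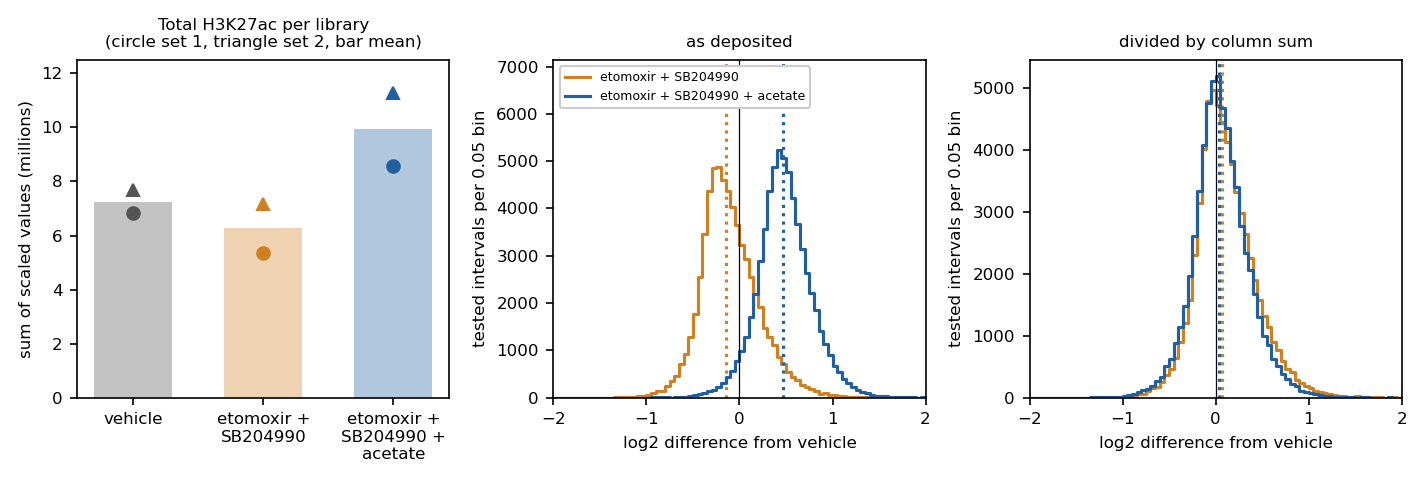
Left, the sum of the spike-in scaled values for each library (circles set 1, triangles set 2, bars the mean of 2) for vehicle, etomoxir + SB204990 and etomoxir + SB204990 + acetate, where both libraries with all 3 agents lie above both vehicle libraries. Middle and right, the number of tested intervals per bin of log2 difference from vehicle for each inhibitor treatment, as deposited and after division by the column sum, with dotted lines at the medians, which are -0.14 and 0.47 as deposited and 0.07 and 0.04 after the division.

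In the amount of H3K27ac, 1073 of 63903 intervals were higher than vehicle with all 3 agents (1.68%, limma on log2(value + 1) with Benjamini-Hochberg adjusted p under 0.05) and 2 were lower (0.00313%). The higher intervals had a median rise of 0.81 on the log2 scale. They were long, with a median of 9174 bp against 1831 bp for all tested intervals, and 10.7% were annotated as promoters against 9.03% of all tested. A further 18191 tested intervals (28.5%) were not called and had a 95% interval of the difference within 2-fold of vehicle. The remaining 44637 (69.9%) were not called but had wider intervals, so that for them a 2-fold difference was not excluded. The count of higher intervals moved with single libraries: it was 45 without vehicle set 1, 426 without vehicle set 2, 9162 without the set 1 library of etomoxir + SB204990 + acetate and 61 without its set 2 library. It was 11529 without the set 2 library of etomoxir + SB204990, which enters only the estimate of spread. The count was 20 with median-of-ratios scaling, 6 without the variance trend, and 1 when the factors were applied to the share of reads, which takes out depth. It was 89 when only the compared libraries were fitted, 513 with no filter on low values, 2797 with a replicate block and 4431 with a mean of at least 50.

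In the share of H3K27ac, 112 intervals were higher than vehicle (0.175%) and 30 were lower (0.0469%). All 112 were also among the 1073, of which they made up 10.4%. Of the higher ones 50.9% were intergenic and 5.36% promoters, and of the lower ones 56.7% were intergenic and 0% promoters, against 24.6% and 9.03% of all tested intervals. The share test was tighter than the first, and 40995 intervals (64.2%) were not called with a 95% interval within 2-fold of vehicle. The counts were 35 higher and 3 lower without vehicle set 1, 67 and 12 without vehicle set 2, 29 and 1 without set 1 of etomoxir + SB204990 + acetate, and 35 and 4 without its set 2. They were 262 and 174 without the set 2 library of etomoxir + SB204990, 8 and 0 without the variance trend, and 147 and 63 when only the compared libraries were fitted.

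Few intervals passed the test in amount with the inhibitors without acetate: 20 were higher than vehicle (0.0313%) and 14 lower (0.0219%), while before adjustment 263 and 2971 had a p under 0.05. The numbers hang on the set 2 library of the inhibitors, which had the fewest reads, with 2.77% of them in the weakest quartile of intervals against 0.99% to 1.41% in the other libraries. Without it far more intervals were called, of which 2053 fell in the returned and 25 in the still apart class defined next. The part of that library's profile in these counts was not tested. The following classes describe these intervals and are not tests, since the members were chosen on the inhibitor libraries and both comparisons use the same vehicle libraries. A member may lie closer to vehicle in new libraries for that reason alone. An interval was counted as returned if it was not called against vehicle with all 3 agents and its 95% interval lay within 2-fold of vehicle, and as still apart if it was called in the same direction. All 14 lowered intervals were returned, and all 20 raised intervals were still apart. Among the 14, the median difference from vehicle was -0.91 with the inhibitors and -0.05 with all 3 agents, with a range of -0.30 to 0.09, and none of their 95% intervals left out 0. Among the 20, the median went from 1.29 to 1.84, further from vehicle. With acetate as the only change (all 3 agents against the inhibitors), 17483 of the 63903 tested intervals were higher (27.4%) and 2 lower (0.00313%). The 14 lowered intervals were all among the higher ones, with a median of 0.87, and so were 13 of the 20 raised intervals, with a median of 0.62 over the 20. The median over all tested intervals was 0.62. A shift of that size at all intervals moves lowered intervals toward vehicle and raised ones away from it. The split by direction in amount therefore does not single out these intervals. The classes also rest on the scaling and the variance model. There were 0 returned and 0 still apart without the variance trend or when the factors were applied to the share of reads, 0 and 13 with median-of-ratios scaling, 0 and 3 when only the compared libraries were fitted, and 60 and 32 with a replicate block. They were 71 and 34 with a mean of at least 50, and 7 and 15 with no filter on low values. These class counts moved with single libraries too. The returned count was 0 without vehicle set 1, 1 without vehicle set 2, 163 and 302 without set 1 or set 2 of etomoxir + SB204990 + acetate, and 144 without set 1 of etomoxir + SB204990. The count still apart was 2 without vehicle set 1, 33 without set 1 of etomoxir + SB204990 + acetate and 149 without set 1 of etomoxir + SB204990.

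The share of H3K27ac gave another picture. Here 101 intervals were higher than vehicle with the inhibitors (0.158%) and 64 lower (0.1%). Of the 101 raised, 80 were still apart with all 3 agents, 13 were returned and 8 were in neither class. Of the 64 lowered, 15 were still apart, 47 were returned and 2 were in neither class. The median difference from vehicle went from 0.64 with the inhibitors to 0.55 with all 3 agents in the 13, and from -0.58 to -0.37 in the 47. The margin of 2-fold, 1 on the log2 scale, is wider than these medians, so an interval that barely moved can count as returned. None of the returned intervals was called by limma against the inhibitors. The return was partial: the median of the 64 was -0.58 with the inhibitors and -0.43 with all 3 agents, and 41 of the 47 returned intervals still had a 95% interval that left out 0. With a margin of 1.5-fold in place of 2-fold, 28 in place of 60 intervals were counted as returned. All 3 agents against the inhibitors gave 0 higher intervals (0%) and 1 lower (0.00156%) by limma. Before adjustment 1012 and 1126 had a p under 0.05. Of the 14 intervals lowered in amount, 8 were returned in share, 4 were still apart and 2 were in neither class. All 20 raised in amount were still apart in share. Over both directions, 60 intervals were returned and 95 still apart. They were 0 and 7 without the variance trend, 3 and 37 when only the compared libraries were fitted, 106 and 108 with a mean of at least 50 and 99 and 122 with a replicate block. Without vehicle set 1 these counts were 3 and 32, and without vehicle set 2 they were 14 and 68. They were 29 and 29 without set 1 of etomoxir + SB204990 + acetate, 26 and 33 without its set 2, and 2381 and 239 or 116 and 182 without set 1 or set 2 of etomoxir + SB204990.

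**Figure D2:**
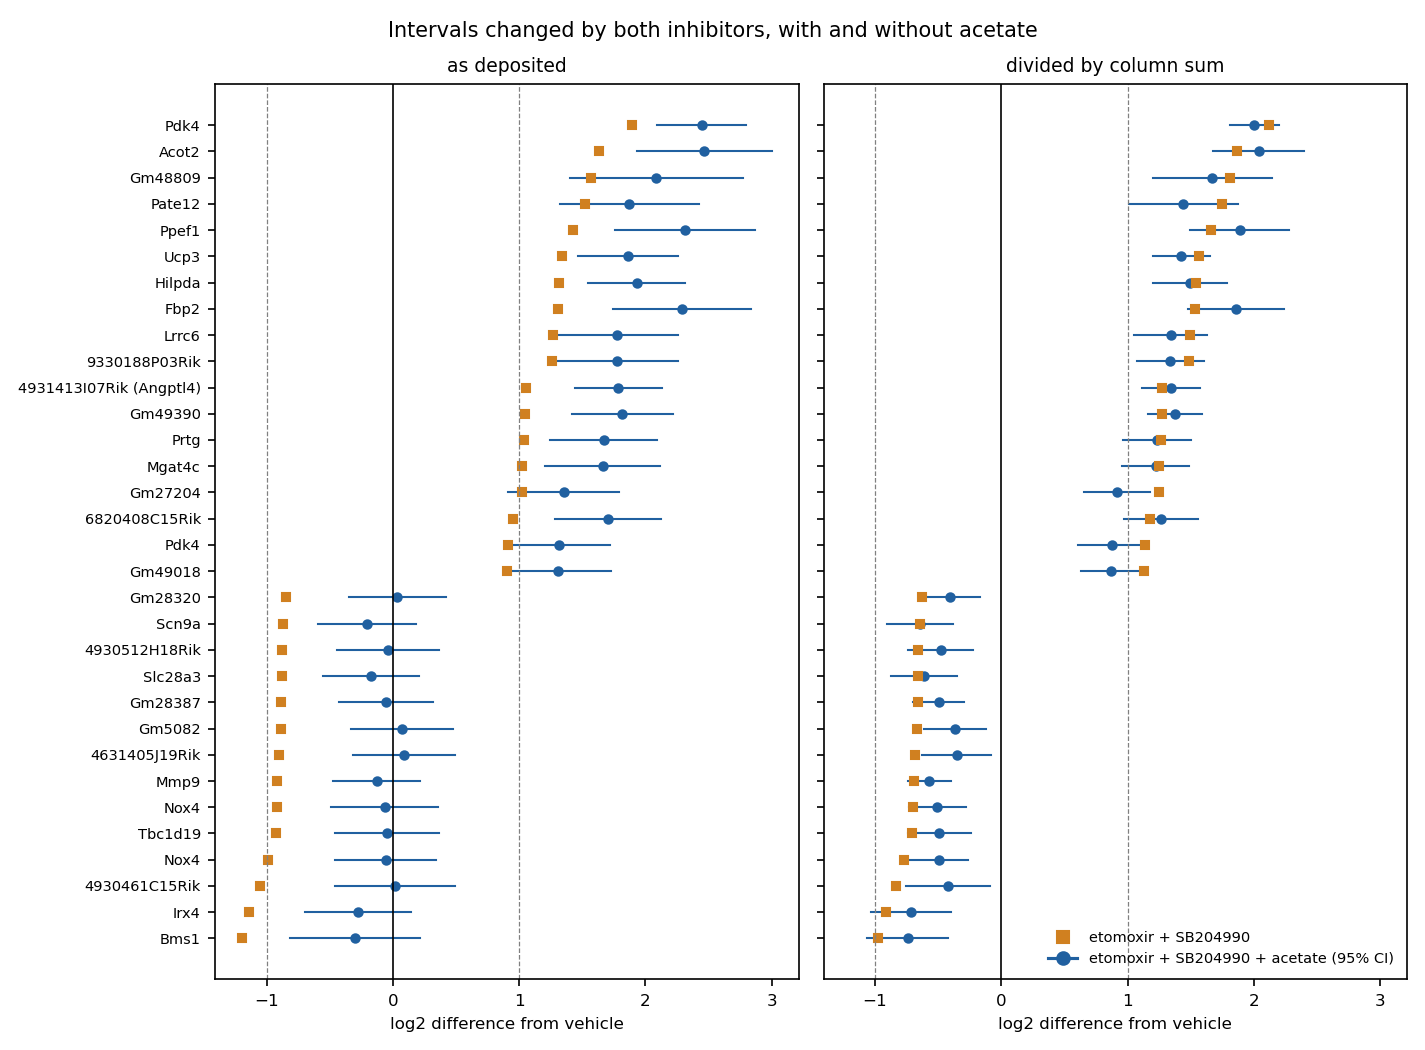
Log2 difference from vehicle for intervals called with etomoxir + SB204990 as deposited (not all of them are drawn), as squares for the inhibitors and as circles with 95% intervals for the inhibitors + acetate, with the values as deposited on the left and after division by the column sum on the right. Dashed lines mark 2-fold of vehicle. The raised intervals stay right of 0 in both panels, and the lowered ones lie on 0 at the left and below 0 at the right.

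Of the intervals that stayed above vehicle in amount, that of Pdk4, whose kinase shuts pyruvate out of the mitochondrial acetyl-CoA pool, had the smallest adjusted p. Its interval at chr6:5495394-5519590 (mm10, 24197 bp) covers the start site at 5496309 and the promoter printed above. The scaled value was 247 and 297 with vehicle, 935 and 1093 with the inhibitors, and 1304 and 1680 with all 3 agents. All treated libraries were above both vehicle libraries, and those with acetate were the highest. The log2 difference from vehicle was 2.45 ± 0.18 (SE, limma adjusted p = 6.09e-37) in amount and 2.005 ± 0.0918 in share (adjusted p = 7.85e-10). In share, all 3 agents differed from the inhibitors by -0.12 with an adjusted p of 1. A further interval 90.3 kb from the Pdk4 start site, at chr6:5580934-5592335, also stayed apart, with a log2 difference of 1.32 in amount.

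Angptl4, a secreted inhibitor of lipoprotein lipase, has its start site in the interval chr17:33774033-33792193, which the authors' annotation assigns to 4931413I07Rik. The interval had 509 and 620 with vehicle, 1151 and 1184 with the inhibitors and 1612 and 2339 with all 3 agents. In amount both libraries of each treatment stood clear of the other treatments. In share the interval had 2151 and 1649 per 10000000 with the inhibitors and 1877 and 2076 with all 3 agents, so that these 2 treatments overlapped (0.07, adjusted p = 1). The log2 difference from vehicle was 1.79 ± 0.18 in amount (adjusted p = 8.57e-20) and 1.34 ± 0.11 in share (adjusted p = 3.23e-06).

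The Cpt1a interval, at the gene of etomoxir's target, was still apart in share. It lies at chr19:3320685-3347179, covers the printed promoter and had 590 and 756 with vehicle, 1007 and 1172 with the inhibitors and 1529 and 2098 with all 3 agents. Its share was 864 and 985, 1881 and 1632, and 1780 and 1862 per 10000000 in the same order. In share, the level with all 3 agents lay between the 2 inhibitor libraries, and both lay about as far from vehicle, at 0.98 ± 0.09 (adjusted p = 1.74e-05) and 0.93. In amount, the difference from vehicle was called only with all 3 agents (1.42, adjusted p = 3.19e-12) and not with the inhibitors (0.70, adjusted p = 0.0692), and all 3 agents exceeded the inhibitors by 0.72 (adjusted p = 0.00105).

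Other intervals that stayed above vehicle were an interval over the Fbp2 start site, an interval 8.55 kb from the start site of Ucp3 that overlaps C2cd3, one near Acot2 and one upstream of Hilpda. Fbp2, a fructose-bisphosphatase of muscle, had 29.0 and 36.4 with vehicle, 88.0 and 76 with the inhibitors and 144 and 185 with all 3 agents, a log2 difference from vehicle of 2.29 ± 0.28. Ucp3, a mitochondrial carrier, had 121 and 160, then 316 and 398, then 475 and 547 at chr7:100458900-100469983, a difference of 1.86 ± 0.20. In amount these groups did not overlap, and the values with acetate were the highest at both intervals. In share the Ucp3 interval did not keep that order. It had 591 and 554 per 10000000 with the inhibitors and 553 and 486 with all 3 agents, a difference of -0.14 between them (adjusted p = 1). The share of the Fbp2 interval was 164 and 106 with the inhibitors and 167 and 164 with all 3 agents (0.33, adjusted p = 1), higher with acetate within each set but overlapping between the treatments.

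Acot2, a mitochondrial acyl-CoA thioesterase, had 25.7 and 38.0, then 91.2 and 108, then 171 and 184 at chr12:83996578-84001260, which lies 10.6 kb from the start site of its neighbour Acot1. Hilpda, a lipid droplet protein that restrains lipolysis, had 167 and 173, then 439 and 412, then 596 and 716 at chr6:29241093-29251303, 26.3 kb from the start site. In share these 4 differences were 1.86, 1.43, 2.04 and 1.49, and each was still apart. Other raised intervals that stayed apart in both scalings lay near Ppef1 (chrX:160743994-160752336, log2 difference 2.32 in amount), in introns of Lrrc6 (1.78), Prtg (1.67) and Mgat4c (1.66), and 38.0 kb from Gata4 (1.82).

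Plin2 encodes a coat protein of lipid droplets. Its interval at chr4:86651404-86696692 had 1463 and 1540 with vehicle, 1605 and 1769 with the inhibitors and 2508 and 3212 with all 3 agents. In amount it was called against vehicle with all 3 agents (0.92 ± 0.17, adjusted p = 7.32e-05) and not with the inhibitors (0.17, adjusted p = 1). In share the differences were 0.48 (adjusted p = 0.0424) and 0.39 (adjusted p = 0.125), and all 3 agents differed from the inhibitors by 0.09 (adjusted p = 1).

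The raised intervals that were returned in share had smaller changes. They lay within Nfe2l3, Evl, Stam, Nrg1 and Uhrf1bp1l among others, 15.8 kb from the start site of Rbbp6, and 17.4 kb from that of Areg, which encodes the EGF receptor ligand amphiregulin. The intron interval of Uhrf1bp1l went from 183 and 188 per 10000000 with vehicle to 280 and 290 with the inhibitors and 224 and 225 with all 3 agents. It was the closest to vehicle of the 13, with a log2 difference of 0.28 (adjusted p = 0.779). The interval in Nrg1, which encodes neuregulin, a ligand of ERBB receptors, went from 516 and 538 to 747 and 699 and then 661 and 635. In both, the libraries with all 3 agents lay between the other treatments, and all 13 still had a 95% interval above 0.

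The lowered intervals lay near genes of several kinds. Mmp9, a secreted protease of the extracellular matrix, had an interval of 40104 bp at chr2:164921821-164961924 that also covers the start site of Slc12a5. The scaled value was 1227 and 1304 with vehicle, 567 and 793 with the inhibitors and 997 and 1342 with all 3 agents. In amount the treated libraries straddled the vehicle libraries, with a log2 difference of -0.13 (95% interval -0.47 to 0.22, adjusted p = 0.596), and acetate had raised the region by 0.79 over the inhibitors (adjusted p = 0.000467). In share the values were 1798 and 1699, then 1059 and 1105, then 1161 and 1191 per 10000000. On that scale all 3 agents stayed clearly below vehicle at -0.57 ± 0.08 (adjusted p = 0.00223) and differed from the inhibitors by 0.12, which was not called.

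Nox4 encodes an NADPH oxidase that makes hydrogen peroxide. Its upstream interval at chr7:87214747-87225717, 25.9 kb from the start site, had 329 and 317 with vehicle, 146 and 180 with the inhibitors and 280 and 345 with all 3 agents. It was returned in amount (-0.05) and met the rule for a return in share as well, although both treated libraries lay under vehicle there (326 and 306 against 482 and 413 per 10000000, -0.50, adjusted p = 0.0908). A closer interval at chr7:87237558-87243952 was still apart in share, at 200 and 170 against 379 and 284 with vehicle (-0.83, adjusted p = 0.0119).

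Other lowered intervals that were still apart in share lay near Postn (periostin, a matrix protein), Bgn (biglycan, a matrix proteoglycan), Il18rap (a subunit of the interleukin-18 receptor), Adamts8 (a secreted protease), Scn9a (a sodium channel) and Slc28a3 (a nucleoside transporter). The Postn interval at chr3:54474772-54485981 is 97.3 kb from the start site by the authors' annotation. It had 766 and 707 per 10000000 with vehicle, 538 and 486 with the inhibitors and 502 and 531 with all 3 agents, a log2 difference of -0.51 from vehicle (adjusted p = 0.0403). Its amount was 523 and 543, then 288 and 349, then 431 and 598, a difference of -0.07 from vehicle (adjusted p = 0.792). The Bgn interval at chrX:73464075-73481929 had a share of 435 and 522, then 316 and 320, then 310 and 329, a difference of -0.58 from vehicle (adjusted p = 0.027). At Postn the shares with acetate lay between those of the inhibitor libraries, and at Bgn they lay on either side of them.

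Few lowered intervals came back fully in share. In 6 of the 47 the 95% interval of the difference from vehicle included 0. The closest was in an intron of Sorbs2, an adaptor protein of the actin cytoskeleton, at chr8:45593493-45615879, which the authors' annotation assigns to Gm16351. It went from 929 and 901 per 10000000 with vehicle to 630 and 698 with the inhibitors and 858 and 940 with all 3 agents, a log2 difference from vehicle of -0.03 (95% interval -0.21 to 0.16). With acetate alone its log2 difference from vehicle was 0.51 in share, which was not called (adjusted p = 0.577). A second interval of that intron, at chr8:45574987-45588156, went from 988 and 921 to 740 and 631 and then 817 and 870.

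Few intervals were called below vehicle in amount. The interval nearest to Trbv31, at chr6:41552322-41555856, had 95.4 and 114 with vehicle, 31.5 and 69 with the inhibitors and 36.9 and 73.7 with all 3 agents. It was 1 of the 2 lower in amount (-0.99, adjusted p = 0.0421) and was lower in share too (-1.43, adjusted p = 0.00466). The other was a 260 bp interval on chromosome Y near Gm28986, which was chosen after its values were seen. It had 9.35 and 12.7 with vehicle, 5.97 and 31 with the inhibitors and 0 reads in both libraries with all 3 agents. It was also the 1 interval lower than with the inhibitors in share. Its mean over the 12 libraries was 13.5 units, near the minimum of 10 for a test. The study is of female breast cancer, and how reads came to lie on chromosome Y was not tested. No loss of H3K27ac is therefore read from this interval. Among the intervals lower in share, an intron of Ncald, assigned to Gm15942, had a share of 1349 and 1314 with vehicle and 791 and 888 with all 3 agents (-0.67, adjusted p = 0.00271).

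The direct repeat described above occurred in the 101 intervals raised in share at 4.66 sites per 100 kb, in the 64 lowered at 2.35 and in all tested intervals at 2.71, on both strands and with up to 1 mismatch. Outside masked repeats the densities were 3.50, 1.75 and 1.75. TGANTCA occurred at 41.1, 40.6 and 37.9 per 100 kb. An exact copy of each can share at most 1 base. These densities describe the intervals, and no test was made on them.

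Over whole genes, taken as the sum of the intervals whose nearest gene is that symbol, 74 of 19458 genes were higher than vehicle in amount (0.38%) and 1 lower (0.00514%). In share 58 were higher (0.298%) and 23 lower (0.118%). Without vehicle set 1 the 4 counts were 12, 0, 13 and 0, without vehicle set 2 they were 60, 0, 28 and 4, without set 1 of etomoxir + SB204990 + acetate they were 6189, 1, 6 and 0, and without its set 2 they were 2, 0, 12 and 1. The 74 genes higher in amount were 2 with median-of-ratios scaling, 0 when the factors were applied to the share of reads, 8 without the variance trend, 2775 with a replicate block and 9794 without the set 2 library of etomoxir + SB204990. In share the counts of higher and lower genes were 18 and 2 without the variance trend and 143 and 99 without that library. Of 34 PPAR target genes, 23 could be tested, and 9 were higher in amount with 0 lower, among them Acot1, Acot2, Cpt1a, Fbp2, Klf10, Pdk4, Plin2 and Ucp3. In share 6 were higher and 0 lower, with Acot1 (1.28, adjusted p = 0.0537), Plin2 (0.47, adjusted p = 0.0624) and Klf10 (0.37) not called. The list's median was 0.80 in amount and 0.36 in share, against 0.46 and 0.02 for all genes, and in share it was 0.38 with the inhibitors alone. These lists were drawn up with earlier results of these data known, so the counts are a description.

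Of the mitochondrial fatty acid oxidation list, 22 of 27 genes were tested, and Cpt1a and Cpt2 were higher in both scalings with 0 lower. Cpt2 encodes the inner membrane partner of Cpt1a. Its sum was 105 and 120 with vehicle, 150 and 187 with the inhibitors and 234 and 289 with all 3 agents, a log2 difference from vehicle of 1.21 in amount and 0.77 in share (adjusted p = 0.0143 and 0.0263). The sums of the 6 intervals of Acly, the target of SB204990, were 437 and 540, then 360 and 555, then 611 and 837, and it was not called in either scaling (0.56, adjusted p = 0.115, and 0.12). The lists of peroxisomal oxidation, acetyl-CoA supply, fatty acid synthesis, cholesterol synthesis, epithelial identity, integrated stress response, NRF2 response, histone acetylation machinery, glycolysis and AP-1 genes had 0 members called in either scaling over these summed intervals, with medians of 0.43 to 0.55 in amount and -0.01 to 0.10 in share.

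Of 88 EMT and matrix genes, 74 were tested. None was called in amount, and in share Mmp9, Postn and Bgn were lower and 0 higher. The list's median was 0.39 in amount and -0.05 in share. The sum of the 18 Postn intervals was 1204 and 1280 with vehicle, 679 and 1001 with the inhibitors and 1079 and 1450 with all 3 agents. The vehicle libraries lay between the treated libraries, with a difference of 0.01 in amount (adjusted p = 0.962), while in share it was lower by limma at -0.43 (adjusted p = 0.027).

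Col1a1, a fibrillar collagen, had 487 and 566 with vehicle, 299 and 441 with the inhibitors and 602 and 771 with all 3 agents, and was not called (0.38 in amount, adjusted p = 0.163, and -0.07 in share). Sparc, a matrix glycoprotein, had 1008 and 1242, then 639 and 1002, then 1131 and 1519 (0.23 and -0.21). Itga5, the fibronectin receptor subunit, had 496 and 655, then 398 and 564, then 658 and 906 (0.44 and 0.00). In amount both libraries of Col1a1 and Itga5 with all 3 agents lay above both vehicle libraries, and those of Sparc overlapped.

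**Figure D3:**
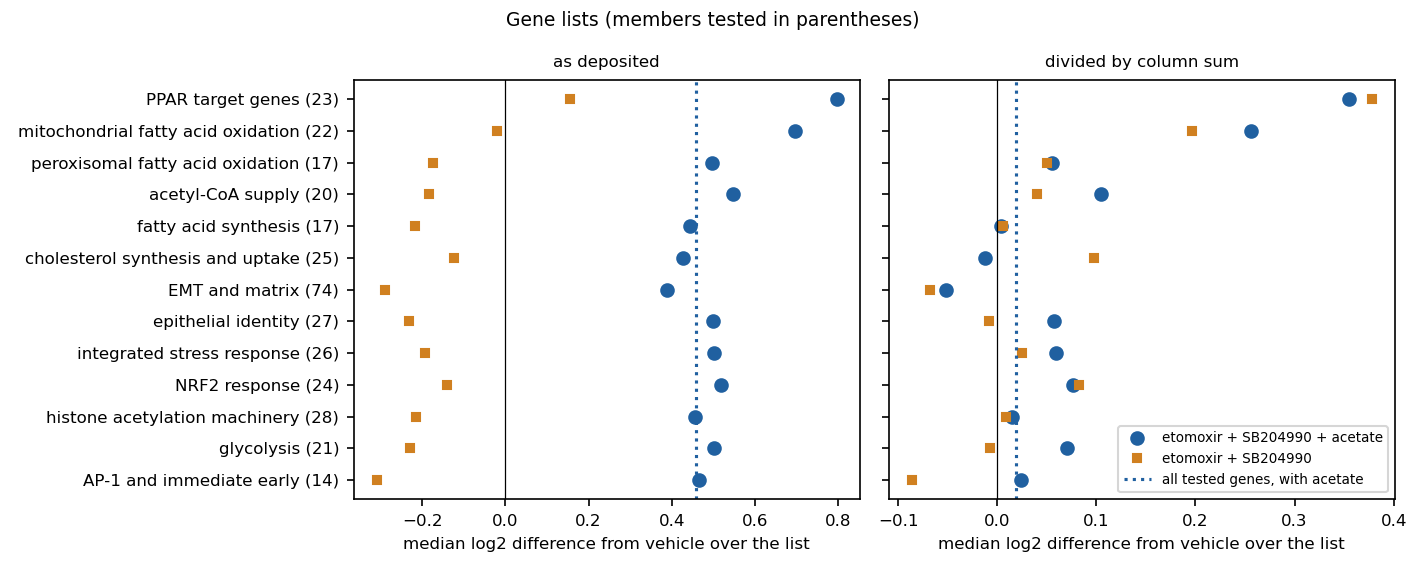
Median log2 difference from vehicle over the tested members of each gene list (number in parentheses) with etomoxir + SB204990 + acetate (circles) and etomoxir + SB204990 (squares), as deposited on the left and after division by the column sum on the right, with a dotted line at the median of all tested genes with acetate. The PPAR target genes lie at 0.80 and 0.36 with acetate and the mitochondrial fatty acid oxidation genes at 0.70 and 0.26, against 0.46 and 0.02 for all genes.

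Counting instead, for each protein-coding gene, the intervals that cover its start site, 374 of 11203 genes were higher in amount (3.34%) and 0 lower (0%, by limma, 0 also before adjustment), and in share 27 were higher (0.241%) and 3 lower (0.0268%). This assignment was chosen after seeing the data. Among PPAR target genes 12 of 21 were then higher in amount, with Angptl4, Aqp7, Fgf21, Slc25a20 and Ucp2 added, and 6 in share (Acot2, Angptl4, Cpt1a, Fbp2, Pdk4 and Plin2). In the oxidation list 8 of 26 were higher in amount and Cpt1a and Cpt2 in share. Of 57 EMT and matrix genes, 7 were higher in amount (Areg, Cald1, Ccn1, Col4a1, Col4a2, Sdc1 and Vegfa), and in share Mmp9 was lower. Col4a1 and Col4a2 share 1 interval over their starts, so they count as 1 region. Of the other lists, members were higher in amount in 7: Acsl3 of fatty acid synthesis, Krt19 and Tjp3 of epithelial identity, Atf5 and Ddit3 of the integrated stress response, Nfe2l2 and Osgin1 of the NRF2 response, Sirt7 of the histone acetylation machinery, Pgk1 of glycolysis and Fosl1 of the AP-1 genes. In share 0 members of these lists were called by limma in either direction.

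Of the marker genes, Tie1, a receptor of endothelium, was higher with all 3 agents: its sum was 31.3 and 41.2 with vehicle, 53.4 and 99 with the inhibitors and 99.6 and 131 with all 3 agents (1.64, adjusted p = 0.0149, and 1.21 in share, adjusted p = 0.0279). The other 4 endothelial markers with an interval were not called, and the endothelial sum was 771 and 898 with vehicle and 965 and 1230 with all 3 agents. The leukocyte sum was 620 and 739 against 854 and 1030, with 0 members called. The part of other cells in the values was not tested.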

How the data were processed

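H3K27ac ChIP-seq of 4T1 cells had 2 libraries for each of 6 treatments. The authors digested chromatin with micrococcal nuclease, added 7.5% human chromatin as a spike-in, and ran the nf-core/chipseq workflow on a merged GRCh38 and mm10 genome, with deepTools named in the submitters' processing notes. The deposited signal is the read count per interval times a library factor that the authors took from the percentage of human reads and divided by the highest factor, which was 1 in 1 library of each set. The coverage values of all libraries were 100% whole multiples of the factor within a tolerance of 0.001, so the reads were recovered (7179165 to 16676442 in intervals per library). The library with the fewest reads, set 2 of etomoxir + SB204990, had 2.77% of its reads in the weakest quartile of intervals, against 0.99% to 1.41% in the others. An error in a factor moves all intervals of its library together. How intervals were called and on which libraries is not given in the sources used here, and no input was used.

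From these values, log2(value + 1) was fitted with limma 3.58.1 (R 4.3.3, trended variance) as 6 group means over 12 libraries, for intervals or genes with a mean of at least 10, as deposited and after dividing each column by its sum (per 10000000). Adjusted p-values are Benjamini-Hochberg over all features tested, called under 0.05, and fold changes are on the log2(value + 1) scale. Named intervals were called, averaged 50 or more and moved alike in both sets, up to 12 per direction by size, or were returned or still apart. The intervals of Plin2 and on chromosome Y met neither part of this rule. Plin2 is a gene named by the next rule. Named genes were those the study names and called members of the lists. The members, lists and tests were chosen with earlier results of these data known. Some intervals and genes that meet the rule are not reported here. Alternatives included other filters, pseudocounts, scalings, leaving out single libraries, and edgeR 4.0.16 on the recovered reads. Libraries were left out from vehicle, etomoxir + SB204990 + acetate and etomoxir + SB204990 only. Without set 1 of etomoxir + SB204990 only the classes were run. Promoters are from RefSeq (GRCm38.p6), start sites from GENCODE M21. The share fit and edgeR were run on simulated counts with known changes, a check of the code and not of these data. Over intervals, the differences between set 1 and set 2 did not correlate between the compared treatments (r = -0.0616 as deposited). Libraries were therefore not paired, and the fit holds no term for set. That correlation leaves out a shift common to all intervals of a set. The scaled sum was higher in set 2 for vehicle, etomoxir + SB204990 and etomoxir + SB204990 + acetate, and lower in set 2 for the other treatments.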

Additional observations from a re-analysis of the deposited data

How the results depend on the processing

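Of 182 alternative values for 13 named intervals as deposited, 153 kept their call, 29 lost it and none changed sign, and the Pdk4 interval was the 1 that kept it throughout. In share, 220 of 288 values for 24 intervals kept the call and 68 lost it. For 18 genes as deposited, 174 of 234 values kept their call or lack of one, 45 lost a call, 5 gained one and 10 changed sign, and no gene kept it throughout. In share 162 of 198 were kept, 28 lost, 6 gained and 2 changed sign. The genes that changed sign were not called in that scaling. As deposited, the 1073 higher intervals became 4431 with a mean of at least 50, 513 with no filter, 6 with no variance trend, 89 with the compared libraries only, 2797 with a replicate block, 20 with median-of-ratios scaling and 1 with the share of reads times the factor. The counts of returned intervals (14) were 71, 7, 0, 0, 60, 0 and 0 under the same alternatives. Those still apart (20) were 34 with a mean of at least 50, 0 with no trend, 3 with the compared libraries, 32 with a replicate block, 13 with median-of-ratios and 0 with the share of reads times the factor. The 2 lower intervals became 1 with a mean of at least 50, the compared libraries or edgeR, and 0 with no trend or the share times factor. The 74 higher genes became 8 with no trend, 2775 with a replicate block, 2 with median-of-ratios, 0 with the share times factor and 374 with start-site intervals, and the 1 lower gene became 0 with a pseudocount of 5, no trend, a 50 kb limit, the share times factor or start-site intervals.

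In share, no trend gave 8 higher and 0 lower intervals, 0 returned, 7 still apart, and 18 higher and 2 lower genes. The compared libraries alone gave 63 lower intervals, 3 returned and 37 still apart. The returned count was 28 with a 1.5-fold margin, 106 with a mean of at least 50 and 99 with a replicate block. Start-site intervals gave 27 higher and 3 lower genes. Leaving out 1 library of the compared treatments gave, as deposited, 45 to 9162 higher and 1 to 1 lower intervals and 2 to 6189 higher and 0 to 1 lower genes, and in share 29 to 67 and 1 to 12 intervals and 6 to 28 and 0 to 4 genes. The classes were also run without each library of etomoxir + SB204990, and gave 0 to 2053 returned and 2 to 149 still apart as deposited and 3 to 2381 and 29 to 239 in share. Without set 2 of etomoxir + SB204990, an alternative added after seeing the data, as deposited 11529 intervals and 9794 genes were higher and 2 intervals and 1 gene lower, and in share 262 intervals were higher and 174 lower, with 143 and 99 genes. The cause was not tested. Of 15 treatment pairs, 3 had a correlation of deviations over 0.1. That measure leaves out a shift common to all intervals of a set, which the replicate block takes out, so it does not decide between the fits.

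The median log2 ratio over all intervals, 0.48, was 0.27 with the share times factor, 0.0393 after division by the sum and -0.0168 with median-of-ratios, and 0.30 to 0.74 without 1 library. As deposited, Postn was -0.49 with median-of-ratios, -0.13 with the share times factor, -0.034 without vehicle set 1 and -0.20 without set 2 of etomoxir + SB204990 + acetate, with a range of -0.20 to 0.22 without 1 library. With median-of-ratios Col1a1 was -0.13, Sparc -0.28 and Itga5 -0.066. Bgn was 0.11 without vehicle set 2 and 0.15 without set 1 of etomoxir + SB204990 + acetate, where Mmp9 was 0.085. Their ranges without 1 library were -0.36 to 0.15 and -0.34 to 0.085. In share Itga5 was 0.11 and 0.031 without these libraries, with a range of -0.12 to 0.11. With 2 libraries a treatment, left-out fits assume that the lone library varies like the others. Depth limits intervals with few reads, such as that of Fbp2 with vehicle.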
